A study of Mus musculus with 74 samples.

Results

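Messenger RNA of 10 genes of lysosomal proteolysis was followed through 5 sorted immune cell types of spleen and tumor. They were legumain (Lgmn), the cathepsins Ctsa, Ctsb, Ctsc, Ctsd, Ctsl, Ctss, Ctsz and Ctsw, and cystatin C (Cst3). The genes were chosen by name with earlier results of these data known, and other cathepsins such as Ctsh are not among them. All 10 were found among the 49480 gene symbols of the count table. The 74 libraries came from C57BL/6J mice of 3 or 12 months whose MC38 tumors, a mouse colon carcinoma line placed under the skin, were taken on day 10. Each library held 1000 double-sorted cells prepared by Smart-seq2, which copies whole polyadenylated transcripts. Macrophages were gated as CD45+CD11b+F4/80+, dendritic cells as CD45+CD11b+CD11c+MHCII+, regulatory T cells as CD45+TCRb+CD4+CD25+, conventional CD4 T cells as CD45+TCRb+CD4+CD25- and CD8 T cells as CD45+TCRb+CD8+. With 2 tissues and 2 ages this gave 20 groups, of 4 libraries except for dendritic cells (3 in spleen at either age and 3 in tumor at 12 months) and conventional CD4 T cells at 3 months (3 in spleen and 2 in tumor). The labels name no engineered allele and no treatment in any group, and do not say whether the spleens came from the tumor-bearing mice or whether libraries shared animals, so p-values measure the spread between these libraries, which may be technical. 4 libraries, all of dendritic cells, came from males and 70 from females.

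Cathepsins are proteases that work mostly inside the acid lysosome. Most are cysteine proteases (Ctsb, Ctsc, Ctsl, Ctss, Ctsz, Ctsw), Ctsd is an aspartic protease and Ctsa a serine carboxypeptidase. They are made as inactive precursors, and legumain, an asparagine-specific endopeptidase, cleaves several of them into their two-chain forms. In antigen-presenting cells these enzymes degrade internalized protein and trim the invariant chain that guards the class II groove, a step in which cathepsin S is best known. In killer lymphocytes cathepsin C removes the pro-dipeptide of granzymes, and cathepsin W is a protease largely restricted to cytotoxic cells. Cystatin C is a secreted inhibitor of cysteine cathepsins and legumain, and its transcript is a familiar mark of conventional dendritic cells.

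Library totals ran from 1652812 to 9115858 counts with a median of 4679410. Adgre1, which encodes the F4/80 of the macrophage gate, lay between 240 and 1103 CPM (counts-per-million, relative to the library total) in macrophages and between 31.8 and 389 CPM in dendritic cells, so the 2 myeloid types overlapped in it. Foxp3, the defining factor of regulatory T cells, lay between 869 and 1310 CPM in regulatory T cells against 21.2 to 354 CPM in conventional CD4 T cells. Some libraries stood apart and are followed through the results. In tumor dendritic cells, replicate 2 of 3 months and of 12 months had summed macrophage markers of 23696 and 25721 CPM, against 4964 to 11262 CPM in the other 5 and 25031 to 51467 CPM in tumor macrophages. In spleen macrophages the summed neutrophil markers ran from 4806 to 41727 CPM, against 32.8 to 928 CPM in tumor macrophages. Ribosomal protein transcripts took 4.16% to 10.6% of counts in spleen conventional CD4 T cells of 3 months. In 2 spleen dendritic cell libraries of 3 months (replicates 3 and 4) the title gives 3 months and the age tag 12 months, and the title was followed. Since these are bulk samples, fewer cells of a type and less RNA per cell cannot be told apart.

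The 10 genes together took a larger share of all counts in tumor than in spleen in each cell type. In macrophages the share was 1.01% ± 0.11 in spleen and 3.07% ± 0.345 in tumor (SD, n = 8 each). In dendritic cells it was 0.865% ± 0.245 (SD, n = 6) and 2.47% ± 0.302 (SD, n = 7). Lymphocytes devoted far less to them, with 0.18% ± 0.014 in spleen and 0.373% ± 0.0357 in tumor for regulatory T cells (SD, n = 8 each), 0.148% ± 0.0113 (n = 7) and 0.216% ± 0.0396 (n = 6) for conventional CD4 T cells and 0.17% ± 0.0168 and 0.29% ± 0.0336 for CD8 T cells (n = 8 each). These shares are given as a description, since most of the counts behind them belong to the few most abundant members.

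Where each gene was highest separated the family. Lgmn had the widest range of group means, from 1.29 CPM in spleen CD8 T cells of 12 months to 3544 CPM in tumor macrophages of 3 months. Ctsl ran from 4.43 to 973 CPM, Ctsb from 79.1 to 5791 CPM, Ctsc from 104 to 5095 CPM, Ctss from 295 to 11220 CPM, Ctsz from 55.0 to 1940 CPM and Ctsd from 61.9 to 1416 CPM, with tumor macrophages at the top of each. Ctsa was the most even, between 145 and 1176 CPM. Cst3 was highest in tumor dendritic cells, with a range from 75.3 to 10231 CPM. Ctsw went the other way, from 2.39 CPM in tumor macrophages of 3 months to 1162 CPM in tumor CD8 T cells of 12 months.

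Ordered by their means, neighbouring groups often overlapped. Of 19 neighbour pairs, library ranges were separate in 6 for Lgmn, 5 for Ctss, 4 each for Ctsb, Ctsz and Ctsw, 3 for Ctsc, 2 for Ctsl and 1 each for Ctsa, Ctsd and Cst3. For Lgmn the separate steps fell between tumor macrophages (lowest library 2751 CPM) and tumor dendritic cells (highest 2540 CPM), between tumor dendritic cells (lowest 450 CPM) and spleen macrophages (highest 326 CPM), and between spleen macrophages (lowest 167 CPM) and spleen dendritic cells (highest 133 CPM). The 2 ages of the spleen dendritic cells were also separate, at 121 to 133 CPM for 12 months and 87.9 to 109 CPM for 3 months. Below them, tumor regulatory T cells (lowest 51.9 CPM) lay above tumor conventional CD4 T cells (highest 29.3 CPM), and every CD8 T cell library was at or under 8.56 CPM. The 2 ages of tumor macrophages overlapped in Lgmn, as did the 2 ages of each tumor type.

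**Figure D1:**
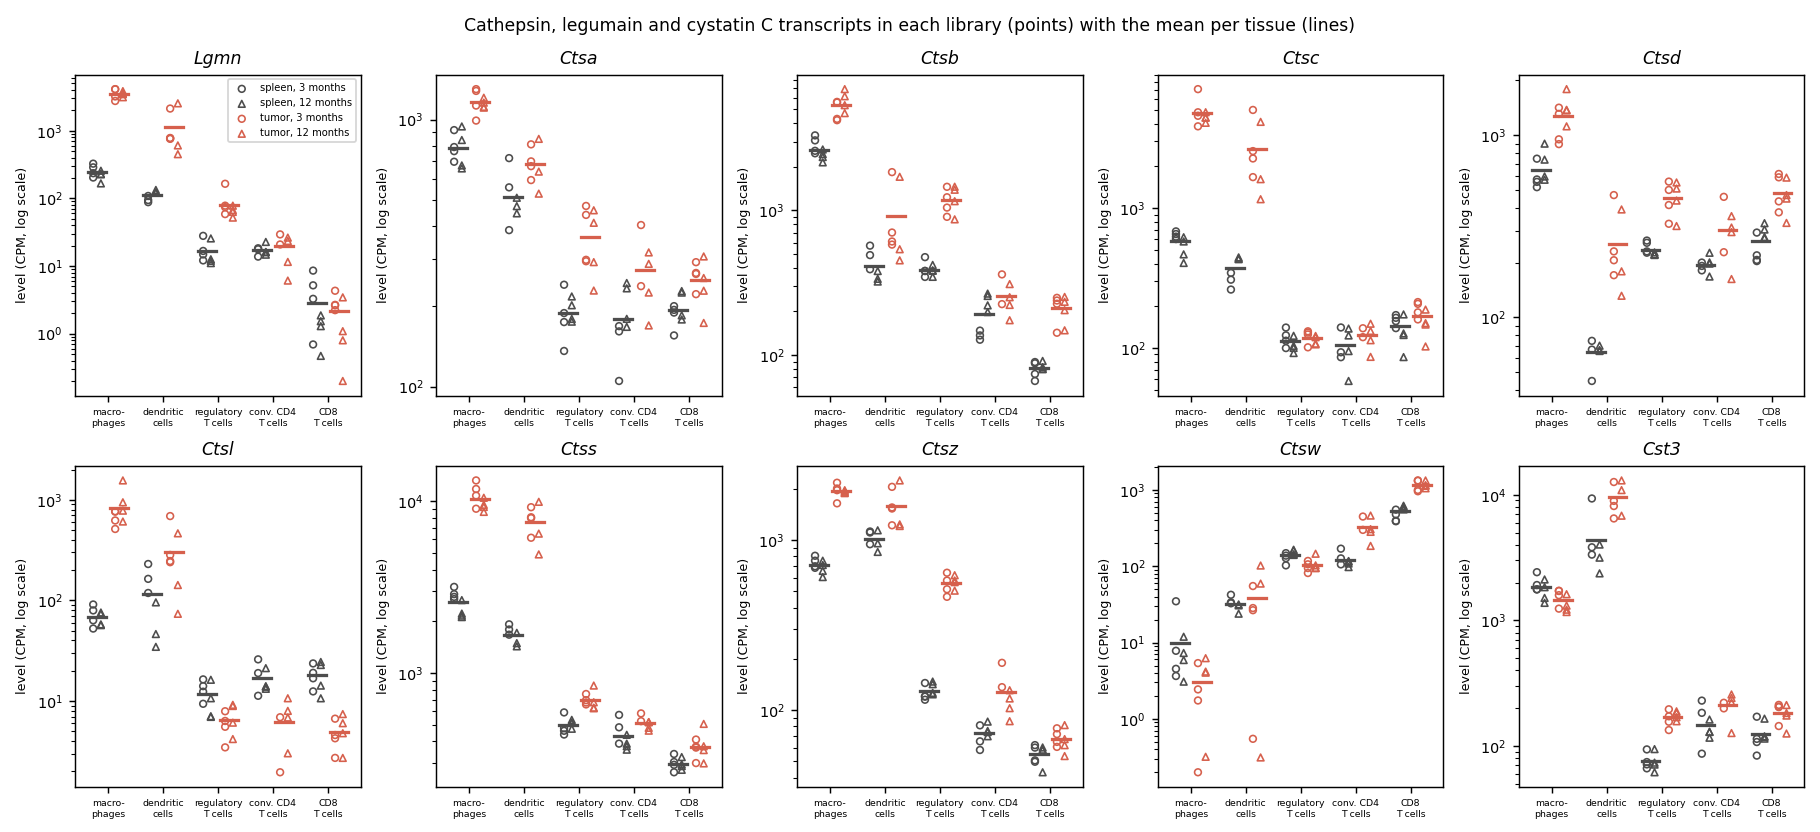
Level of each of the 10 genes in every library, in counts-per-million values relative to the library total on a log axis, by cell type and tissue; each point is 1 library, and a library with 0 counts is drawn at 0.2 CPM. Lgmn, Ctsc, Ctsl and Ctss stand highest in tumor macrophages, Cst3 in tumor dendritic cells and Ctsw in tumor CD8 T cells.

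Levels per kilobase of exon were used to rank the genes against each other within a cell type. The length was the union of all annotated exons of a gene, from 1266 bases for Cst3 to 6489 bases for Ctsl. It can exceed the length of the transcript expressed, which was not measured, so the ranks depend on the annotation. In tumor macrophages Ctsb (5364 CPM) lay above Lgmn (3522 CPM) before division by length and below it after. In spleen macrophages Lgmn was the 7th of the 10, at 104 ± 21.2 CPM per kilobase (SD, n = 8), and in tumor macrophages the 2nd, at 1516 ± 209. Ctss was the first in both, at 1905 ± 281 and 7628 ± 1144. In dendritic cells Cst3 was the first in both tissues, at 3426 ± 1987 (n = 6) and 7544 ± 2102 CPM per kilobase (n = 7), followed by Ctss. Ctss also led in both tissues in regulatory and conventional CD4 T cells. In CD8 T cells Ctsw led, at 276 ± 48.1 in spleen and 612 ± 80.1 in tumor (n = 8 each), and Lgmn and Ctsl were the lowest pair. Only in tumor regulatory T cells did Ctsz (386 ± 41.9 CPM per kilobase) and Ctsb (197 ± 39.2) stand 2nd and 3rd.

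In the GENCODE annotation of GRCm38 (mm10), Lgmn lies at chr12:102394084-102439813 on the minus strand, Ctsb at chr14:63122462-63145923 on the plus strand, Ctsc at chr7:88278085-88310888 (plus), Ctsd at chr7:142375911-142388038 (minus), Ctsl at chr13:64359337-64370890 (minus), Ctss at chr3:95526786-95556403 (plus) and Ctsw at chr19:5465043-5468507 (minus). Chromosome 2 carries Ctsa at chr2:164832873-164841032 (plus), Ctsz at chr2:174427493-174439039 (minus) and Cst3 at chr2:148871722-148875692 (minus). Exons of Ctsl share 1742 bases with Gm47123 and Gm49230, those of Ctsa 819 bases with Neurl2 and Pltp, those of Ctsd 808 bases with Gm49369 and those of Ctsb 774 bases with Fdft1. The sources used here do not state whether strand was used in counting, so reads in those stretches could belong to either gene. Gm49230 lies on the strand of Ctsl and Gm49369 on that of Ctsd, where strand would not separate the reads. Lgmn, Ctsc, Ctss and Cst3 share no exon base with another gene.

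Because these genes differ so much by cell type and several rise together in tumor, their promoters were read for the letters of known lysosomal and myeloid elements. RefSeq promoters of GRCm38.p6 (250 bases before to 50 after a start) were found for 8 of the 10 genes, with 10 promoters in all; Ctsb and Ctsw had no entry. The E-box CACGTG, the centre of the CLEAR element to which TFEB and its relatives bind in lysosomal genes, was in 4 of the 10 promoters (of Ctsa, Ctsd, Ctsl and Lgmn), against 7.15% of 32851 promoters of the same length. The longer form TCACGTGA, which contains it, was in 2 (Ctsa and Ctsd), against 0.974% of all. GAGGAAGT, a core to which the myeloid factor PU.1 can bind, was in 2 (Ctsc and Ctss), against 3.2%, and the AP-1 letters TGACTCA in 0, against 5.2%. Both strands were searched. A match is a description of the letters and not a site in these cells. The windows below show matches in capitals with up to 10 bases on either side, 5′ to 3′ on the gene's strand; GAGGAAGT in Ctsc is on the opposite strand and is therefore read as its complement. The Ctss match, 2 bases before its start, and a second Ctsa match after its start are not printed.
Ctsa, chr2:164833751-164833772, plus strand, 12 bases before the start: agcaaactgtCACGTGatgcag
Ctsd, chr7:142387910-142387935, minus strand, 98 bases before the start: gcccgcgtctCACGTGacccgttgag
Ctsd, chr7:142388057-142388077, minus strand, 245 bases before the start: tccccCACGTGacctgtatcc
Lgmn, chr12:102439126-102439151, minus strand, 49 bases before an alternative start: gaatgtctgtCACGTGgtccatttta
Ctsl, chr13:64370741-64370766, minus strand, 236 bases before the start: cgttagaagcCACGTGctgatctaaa
Ctsc, chr7:88277924-88277951, plus strand, 151 bases before the start: tcactaactaACTTCCTCaggccacctc
The Ctsa window, the first Ctsd window and the Ctsl window also fall in exons of other transcripts of the same gene in GENCODE.

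Tumor macrophages had more messenger RNA than spleen macrophages for 8 of the 10 genes, and legumain moved most. Lgmn ran from 167 through a median of 233 to 326 CPM in the 8 spleen libraries and from 2751 through 3514 to 4118 CPM in the 8 tumor libraries. No spleen library came near a tumor library, and the fitted change was 17-fold (log2 fold change 4.09, SE 0.135, adjusted p = 1.2e-13, edgeR quasi-likelihood test with Benjamini-Hochberg adjustment over all genes tested). Of the 12876 genes tested in this comparison 51.7% were called at an adjusted p under 0.05, 23.9% higher and 27.8% lower, and library ranges did not overlap for 7 of the 10 members, against 22.3% of all genes tested. The fitted changes compare tumor with spleen over both ages after scaling libraries by TMM (the trimmed mean of M-values), while CPM refer to the library total, so the ratio of mean CPM can differ from the fold.

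The endopeptidases Ctsl and Ctss and the dipeptidyl peptidase Ctsc followed. Ctsl ran from 52.5 through 68.4 to 91.1 CPM in spleen and from 513 through 766 to 1558 CPM in tumor macrophages. The 2 tissues were far apart, by 13.6-fold (log2 3.77, SE 0.201, adjusted p = 2.43e-11). Ctsc ran from 406 through 611 to 683 CPM in spleen and from 3849 through 4514 to 7103 CPM in tumor. It rose 9.64-fold (log2 3.27, SE 0.134, adjusted p = 8.28e-13), which put it among the 3 members with the largest change. Ctss, the most abundant member per kilobase in both tissues, ran from 2119 through 2680 to 3176 CPM in spleen and from 8680 through 10016 to 13233 CPM in tumor, a change of 4.67-fold (log2 2.22, SE 0.097, adjusted p = 1.28e-12).

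Smaller changes were found for the remaining proteases. Ctsz, a carboxypeptidase, had mean levels of 709 ± 63.1 CPM in spleen and 1927 ± 146 CPM in tumor (SD, n = 8 each), a log2 fold change of 1.66 (SE 0.091). Ctsb, which acts as both endo- and exopeptidase, had 2629 ± 379 and 5364 ± 930 CPM (log2 1.25, SE 0.108). Ctsd had 649 ± 131 and 1280 ± 289 CPM (log2 1.19, SE 0.146), and its ranges touched, with 900.0 CPM in the highest spleen and 895 CPM in the lowest tumor library. Ctsa, which also protects lysosomal sialidase, had 784 ± 108 and 1162 ± 100.1 CPM (log2 0.78, SE 0.101). Adjusted p-values of these 4 lay between 2.02e-11 and 2.36e-06.

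The inhibitor did not move with the proteases in macrophages. Cst3 ran from 1378 through 1801 to 2418 CPM in spleen and from 1165 through 1448 to 1721 CPM in tumor, so the tissues overlapped (log2 fold change -0.13, SE 0.113, adjusted p = 0.352). Ctsw was near the bottom in both, with a median of 6.59 CPM in spleen and 3.23 CPM in tumor (log2 -1.44, SE 0.624, adjusted p = 0.0627), and the tumor library of 3 months, replicate 3, had no count, which allows up to 0.709 CPM by counting error alone. Scaling by library totals moved the median gene by -0.22 (log2) and the share of calls that were higher from 46.2% to 30.9%. Under that scaling Cst3 (-0.35, adjusted p = 0.0145) and Ctsw (-1.68, adjusted p = 0.0295) were called lower, and the 8 other members stayed called higher. Neutrophil and B cell markers moved with this comparison: the 8 B cell markers summed to 923 to 3171 CPM in spleen and 6.76 to 36.9 CPM in tumor macrophages, and none of the 10 neutrophil or 8 B cell markers was at 0 in every library of either tissue. Without the 3 spleen libraries richest in neutrophil markers the same 8 members were called, with Lgmn at 4.02, Ctsl at 3.89 and Ctsc at 3.22 (log2). The spleen libraries kept still had at least 4806 CPM of neutrophil markers, against at most 928 CPM in tumor. That fit does not remove the difference in these markers, and the part of neutrophil and B cell RNA in the results was not tested.

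Tumor dendritic cells had more of 9 of the 10 genes than spleen dendritic cells, where 47.1% of the 13981 genes tested were called (24.4% higher and 22.7% lower), and 5 members had ranges that did not overlap, against 26.9% of genes. Legumain again had the largest fitted change. The 6 spleen libraries ran from 87.9 through 115 to 133 CPM and the 7 tumor libraries from 450 through 770 to 2540 CPM. All tumor libraries lay above all spleen libraries, and the change was 12.4-fold (log2 3.64, SE 0.485, adjusted p = 0.000197). The 2 libraries rich in macrophage markers gave the highest values, 2126 and 2540 CPM, against 450 to 781 CPM in the other 5. Without them the log2 fold change was 2.83 (SE 0.105, adjusted p = 5.93e-12), a smaller change with a smaller error. Macrophage markers moved with this comparison in the other 5 libraries as well. They summed to at least 4964 CPM there, against 886 to 1587 CPM in spleen dendritic cells, and their part in the results was not tested.

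Ctsc ran from 262 through 388 to 445 CPM in spleen and from 1159 through 2268 to 5041 CPM in tumor dendritic cells, 8.67-fold apart (log2 3.12, SE 0.354, adjusted p = 4.1e-05). Ctss ran from 1432 through 1695 to 1923 CPM and from 4909 through 7985 to 9934 CPM (log2 2.49, SE 0.165, adjusted p = 2.73e-08). Both were separate between the tissues, and so were Ctsd and Ctsz. Ctsd had 64.6 ± 10.2 CPM in spleen (n = 6) and 254 ± 126 CPM in tumor (SD, n = 7), or 2.27 on the log2 scale (SE 0.325, adjusted p = 0.000209), and Ctsz had 1017 ± 119 and 1573 ± 417 CPM (log2 0.93, SE 0.15, adjusted p = 0.000149). Ctsa rose less, by 0.75 (log2, SE 0.151, adjusted p = 0.000945).

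Cystatin C, in contrast to macrophages, was called higher in tumor dendritic cells. Cst3 ran from 2366 through 3577 to 9335 CPM in spleen and from 6473 through 8933 to 12996 CPM in tumor, and only 1 spleen library, replicate 3 of 3 months, reached into the tumor range. The change was 2.92-fold (log2 1.54, SE 0.276, adjusted p = 0.000768). Ctsb (log2 1.43, SE 0.384, adjusted p = 0.0121) and Ctsl (log2 1.8, SE 0.462, adjusted p = 0.00999) were called higher with overlapping ranges. Those 2 calls were lost without the 2 libraries of conflicting age (Ctsb 1.21, adjusted p = 0.186, and Ctsl 1.54, adjusted p = 0.154) and when their age tag was used (1.14, adjusted p = 0.134, and 1.14, adjusted p = 0.268).

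Ctsw split the tumor dendritic cell libraries. It was at 0.549 and 0.313 CPM in the 2 libraries rich in macrophage markers and at 26.5, 28.3, 54.9, 59.1 and 102 CPM in the other 5, against 23.9 to 42.2 CPM in spleen. Over all 7 libraries the change was 0.58 (log2, SE 0.93, adjusted p = 0.645), and without those 2 it was 1.08 (SE 0.181, adjusted p = 0.000129). The 6 NK cell markers moved with it: they summed to 3.73 and 3.13 CPM in those 2 libraries and to 55.9, 90.3, 142, 110 and 253 CPM in the others (in rising order of Ctsw), and to 88.2 to 208 CPM in spleen; their part in the result was not tested. Without those 2 libraries all 10 members were called higher, with Ctsc at 2.54, Ctss at 2.26, Cst3 at 1.76, Ctsd at 1.75, Ctsl at 1.07, Ctsb at 0.76, Ctsz at 0.70 and Ctsa at 0.57 (log2). The share of all genes called in that fit is not given here, so this count has no background beside it. Scaling by library totals moved the median gene by -0.33 and the share of calls that were higher from 51.8% to 29.4%, with no change of sign among the members. The 8 B cell markers moved with this comparison too, with sums of 524 to 3359 CPM in spleen and 11.6 to 35.6 CPM in tumor dendritic cells and none at 0, and their part in the results was not tested.

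**Figure D2:**
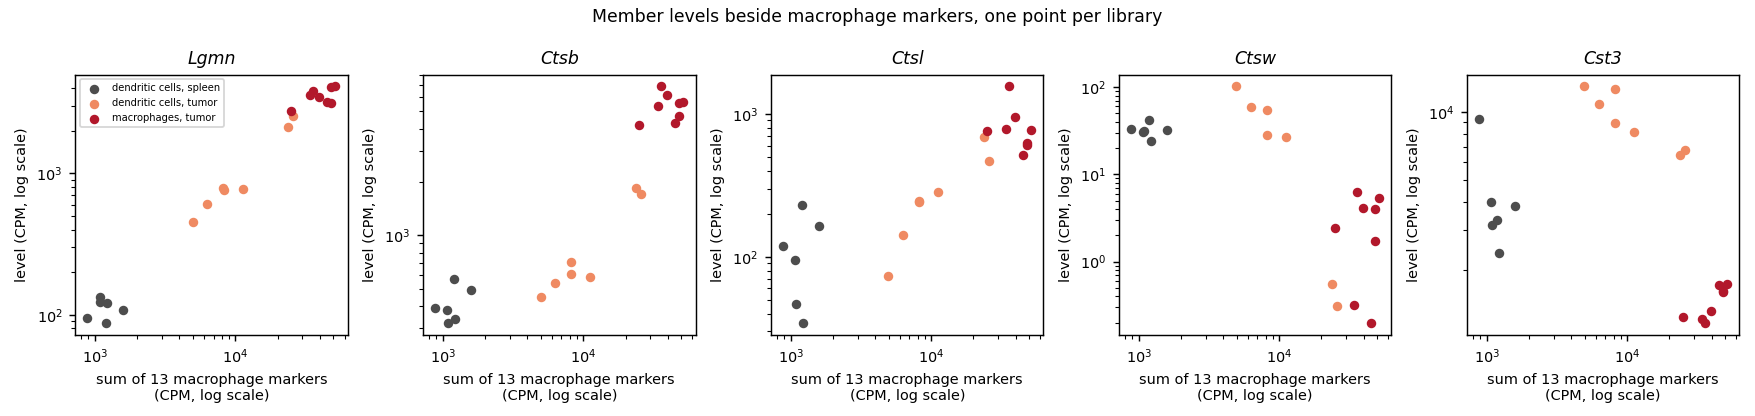
Lgmn, Ctsb, Ctsl, Ctsw and Cst3 in each dendritic cell library and each tumor macrophage library against the sum of 13 macrophage markers in the same library. All are counts-per-million on log axes, and each point is 1 library. The 2 tumor dendritic cell libraries with sums of 23696 and 25721 CPM have the highest Lgmn and the lowest Ctsw of the tumor dendritic cells.

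**Figure D3:**
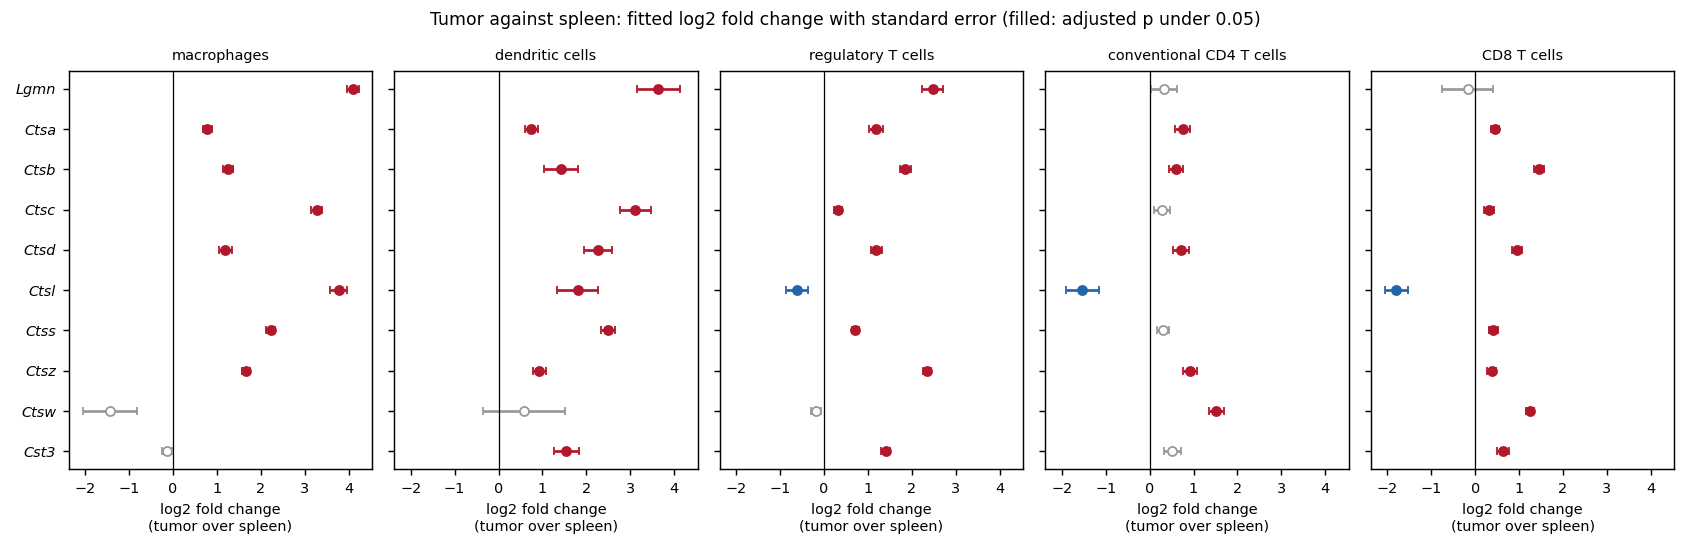
Fitted log2 fold change of tumor over spleen with its standard error for the 10 genes in each of the 5 cell types; filled points have an adjusted p under 0.05. Lgmn is at 4.09 in macrophages, 3.64 in dendritic cells and 2.48 in regulatory T cells, and Ctsl is above 0 in both myeloid types and below 0 in the T cells.

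In regulatory T cells 8 members were higher and 1 was lower in tumor, where 53.5% of the 13345 genes tested were called (25.9% higher and 27.6% lower), and 6 members did not overlap, against 24.5% of genes. The carboxypeptidase Ctsz gave the smallest adjusted p. It ran from 115 through 125 to 147 CPM in the 8 spleen libraries and from 463 through 570.0 to 641 CPM in the 8 tumor libraries, 5.07-fold apart (log2 2.34, SE 0.091, adjusted p = 1.5e-14). Ctsb ran from 347 through 382 to 475 CPM and from 868 through 1197 to 1460 CPM (log2 1.85, SE 0.121, adjusted p = 5.41e-11). Legumain, at a far lower level than in myeloid cells, ran from 11.04 through 13.7 to 27.9 CPM in spleen and from 51.9 through 70.7 to 164 CPM in tumor. It too was separate between the tissues, by 5.58-fold (log2 2.48, SE 0.239, adjusted p = 3.52e-08).

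Cst3 ran from 61.8 through 72.6 to 94.5 CPM in spleen and from 134 through 171 to 196 CPM in tumor regulatory T cells (log2 1.40, SE 0.112, adjusted p = 1.2e-09), so inhibitor and proteases were higher together. Ctsd (log2 1.19, SE 0.118), Ctsa (1.18, SE 0.152) and Ctss (0.71, SE 0.085) also rose, with adjusted p-values between 3e-08 and 1.62e-06. Ctsc was called by a narrow change (0.32, adjusted p = 0.0111), which was 0.08 (adjusted p = 0.511) under library totals. Ctsl was the member called lower (-0.62, SE 0.256, adjusted p = 0.0476), from a median of 11.5 CPM in spleen to 6.22 CPM in tumor, and that call was lost with DESeq2's size factors (adjusted p = 0.0527) and without any 1 of 10 libraries. Ctsw was not called (-0.19, adjusted p = 0.165), but was at -0.42 (adjusted p = 0.00299) under library totals, which moved the median gene by -0.24 and the share of calls that were higher from 48.4% to 31.7%. The 13 macrophage markers summed to 37.5 to 81.0 CPM in spleen and 13.8 to 90.9 CPM in tumor regulatory T cells, which overlapped. The 10 neutrophil markers summed to 2.09 to 11.5 CPM in spleen and 81.3 to 340 CPM in tumor, and their part in the result was not tested.

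In conventional CD4 T cells 5 members were higher and 1 lower in tumor, where 27.2% of the 14661 genes tested were called (16% higher and 11.2% lower), and 3 did not overlap, against 10.2% of genes. Ctsw led: the 7 spleen libraries ran from 97.2 through 115 to 169 CPM and the 6 tumor libraries from 184 through 302 to 460 CPM. The libraries of the 2 tissues were separate, by 2.87-fold (log2 1.52, SE 0.18, adjusted p = 2.26e-07). Ctsz ran from 58.2 through 74.2 to 85.5 CPM and from 86.0 through 124 to 189 CPM (log2 0.92, SE 0.155, adjusted p = 5.46e-05). Ctsl fell from 11.3 through 14.03 to 26.0 CPM in spleen to between 1.96 and 10.7 CPM in tumor, with a tumor median of 6.88 CPM (log2 -1.54, SE 0.376, adjusted p = 0.00302), and the call was lost without the 2 spleen libraries rich in ribosomal transcripts (-1.11, adjusted p = 0.107).

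Ctsa (log2 0.75, adjusted p = 0.00144), Ctsd (0.72, adjusted p = 0.00287) and Ctsb (0.60, adjusted p = 0.00411) were called higher with overlapping ranges. All 3 calls were lost without the tumor library of 3 months, replicate 1 (0.49, adjusted p = 0.0716; 0.37, adjusted p = 0.181; and 0.36, adjusted p = 0.166), which left 3 members called. Legumain was not called: it ran from 13.8 through 16.2 to 22.7 CPM in spleen and from 6.09 through 22.1 to 29.3 CPM in tumor (log2 0.32, SE 0.302, adjusted p = 0.469). Cst3 had 148 ± 47.6 CPM in spleen and 211 ± 45.8 CPM in tumor (log2 0.52, SE 0.199, adjusted p = 0.0538). It was called without the ribosome-rich libraries (1.05, adjusted p = 9.9e-05), as was Ctss (0.51, adjusted p = 0.012, against 0.31, adjusted p = 0.104, with them). Ctsc was at 0.29 (adjusted p = 0.248). The NK cell markers summed to 100.4 to 271 CPM in spleen and 429 to 1308 CPM in tumor, and their part in the change of Ctsw was not tested.

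In CD8 T cells 8 members were higher and 1 lower in tumor, where 42.1% of the 13285 genes tested were called (22.5% higher and 19.6% lower), and 4 did not overlap, against 13.9% of genes. Ctsw was the most abundant member per kilobase. It ran from 387 through 551 to 618 CPM in the 8 spleen libraries and from 957 through 1138 to 1326 CPM in the 8 tumor libraries. Every tumor library was above every spleen library, by 2.37-fold (log2 1.25, SE 0.093, adjusted p = 1.54e-10). Ctsb ran from 66.0 through 81.2 to 90.9 CPM and from 142 through 230 to 252 CPM (log2 1.46, SE 0.117, adjusted p = 5.33e-10), and Ctsd from 204 through 274 to 329 CPM and from 330 through 460 to 613 CPM (log2 0.96, SE 0.117, adjusted p = 4.39e-07). The NK cell markers, several of which activated CD8 T cells also make, summed to 1064 to 2104 CPM in spleen and 2962 to 5168 CPM in tumor, with Ncr1 at 0 in spleen; their part in the change of Ctsw was not tested.

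Ctsl went down. It ran from 10.7 through 17.96 to 24.5 CPM in spleen and from 2.72 through 4.69 to 7.42 CPM in tumor CD8 T cells, which did not overlap (log2 -1.79, SE 0.267, adjusted p = 7.63e-06). Cst3 (0.64, SE 0.132), Ctsa (0.45, SE 0.101), Ctss (0.42, SE 0.104) and Ctsz (0.37, SE 0.113) rose with overlapping ranges and adjusted p-values between 0.000389 and 0.0101. Ctsc, whose product activates granzymes, had 143 ± 30.0 CPM in spleen and 169 ± 36.2 CPM in tumor (SD, n = 8 each), and its call (0.32, adjusted p = 0.0406) was lost under library totals (0.24, adjusted p = 0.139) and without any 1 of 11 libraries. Legumain was barely present, with medians of 1.695 CPM in spleen and 2.43 CPM in tumor (log2 -0.17, SE 0.584, adjusted p = 0.838). In 1 tumor library of 12 months it had no count, which allows up to 0.636 CPM.

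Macrophages and dendritic cells were then fitted together to compare them directly. In spleen 6 members were higher in macrophages and 2 in dendritic cells, where 27.1% of the 15258 genes tested were called higher in macrophages and 25.8% lower. Ctsd had 649 ± 131 CPM in macrophages (n = 8) and 64.6 ± 10.2 CPM in dendritic cells (SD, n = 6), the largest difference of a member (log2 3.31, SE 0.276, adjusted p = 2.36e-10), followed by Ctsb (2.57, SE 0.291). Ctsz (-0.57, adjusted p = 0.000377) and Cst3 (-1.22, adjusted p = 1.06e-05) were lower in macrophages. In tumor 7 were higher and 2 lower, against 22% and 23.9% of all genes. Lgmn was 3522 ± 485 CPM in macrophages (n = 8) and 1147 ± 827 CPM in dendritic cells (SD, n = 7) (log2 1.47, SE 0.287, adjusted p = 0.000195). Cst3 was 1446 ± 235 and 9550 ± 2661 CPM (log2 -2.89, SE 0.203, adjusted p = 8.2e-12), and Ctsw was the other member that was lower (-3.77, adjusted p = 0.00144). Without the 2 dendritic cell libraries rich in macrophage markers the difference was 2.47 for Lgmn (SE 0.15), 3.21 for Ctsb in place of 2.40, and 2.16 for Ctsl in place of 1.28, and Ctsz was called as well (0.43, adjusted p = 0.00171). Ctss (0.40, adjusted p = 0.0114) was not called without the tumor dendritic cell library of 12 months, replicate 3 (0.27, adjusted p = 0.084).

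The test of whether the tumor-against-spleen change differed between the 2 myeloid types called 4 members, 2 in each direction, against 7.88% of all genes higher and 15.4% lower. Ctsl changed more in macrophages, by 1.97 (log2, SE 0.452, adjusted p = 0.00242), and so did Ctsz, by 0.74 (SE 0.165, adjusted p = 0.00131). Cst3 changed more in dendritic cells, by -1.67 (SE 0.27, adjusted p = 3.39e-05), as did Ctsd, by -1.07 (SE 0.316, adjusted p = 0.0146). For Lgmn the difference was 0.46 (SE 0.395, adjusted p = 0.447). The 2 dendritic cell libraries rich in macrophage markers bear on these values. Without them 7 members were called: Lgmn (1.25, adjusted p = 2.23e-06), Ctsc (0.72, adjusted p = 0.00555), Ctsb (0.48, adjusted p = 0.0339) and Ctsw (-2.56, adjusted p = 0.0195) joined Ctsl (2.69), Ctsz (0.95) and Cst3 (-1.90), and Ctsd was not called (-0.57, adjusted p = 0.0507). That count also stands without the share of all genes called in the same fit. Ctsd was also lost without the 3 spleen macrophage libraries richest in neutrophil markers (-0.95, adjusted p = 0.0579).

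Between regulatory and conventional CD4 T cells 4 members were called in spleen, where 45.1% of all genes tested were called. In tumor 6 were called, against 44.5% of all genes. Leaving out 1 library gave 3 to 4 in spleen and 5 to 7 in tumor. In spleen Ctsb (log2 0.92, adjusted p = 3.98e-07) and Ctsz (0.63, adjusted p = 1.93e-05) were higher in regulatory T cells, and Cst3 (-1.20, adjusted p = 7.68e-08) and Ctsl (-0.79, adjusted p = 0.027) were lower, where 24.4% of the 16607 genes tested were called higher and 20.7% lower. Ctsl was not called without the ribosome-rich libraries (-0.36, adjusted p = 0.538). In tumor 5 were higher and 1 lower, against 22.3% and 22.2% of all genes. Ctsz was 557 ± 60.4 CPM in tumor regulatory T cells (n = 8) and 127 ± 35.7 CPM in tumor conventional CD4 T cells (SD, n = 6) (log2 2.09, SE 0.132, adjusted p = 1.01e-15). Ctsb was 1190 ± 237 and 257 ± 67.5 CPM (2.20, SE 0.156, adjusted p = 2.33e-14) and Lgmn 79.4 ± 35.6 and 19.6 ± 8.99 CPM (1.95, SE 0.289, adjusted p = 8.58e-07). None of these 3 overlapped between the 2 types, as was so for 19.3% of all genes tested. Ctsd (0.57, adjusted p = 0.00391) and Ctss (0.44, adjusted p = 0.00224) were higher too, the first of them not without the conventional CD4 tumor library of 3 months, replicate 3 (0.37, adjusted p = 0.105), and Ctsw was lower (-1.67, adjusted p = 2.93e-11).

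The tumor-against-spleen change differed between these 2 types for 5 members, 4 higher and 1 lower, against 4.25% of all genes higher and 5.3% lower. Lgmn rose more in regulatory T cells by 2.19 (log2, SE 0.382, adjusted p = 0.000108), Ctsz by 1.46 (SE 0.168, adjusted p = 4.06e-08) and Ctsb by 1.29 (SE 0.194, adjusted p = 8.34e-06). Ctsw differed in the other direction by -1.68 (SE 0.217, adjusted p = 5.03e-07), since it rose in conventional cells and was not called in regulatory cells. Cst3 differed by 0.92 (SE 0.234, adjusted p = 0.00823), a call lost without the ribosome-rich libraries (0.39, adjusted p = 0.343) and under library totals (0.66, adjusted p = 0.0512). Library totals moved the share of calls that were higher from 44.5% to 18.5% in this difference and from 54% to 66.2% in spleen. The CD25- gate held some cells with Foxp3, up to 354 CPM, and their part in these values was not tested.

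CD8 and conventional CD4 T cells differed in 3 members each way in spleen, where 5.39% of the 16747 genes tested were called higher and 5.61% lower in CD8 T cells. Ctsw was higher in CD8 T cells (log2 2.12, SE 0.146, adjusted p = 2.79e-14), and so were Ctsc (0.47, adjusted p = 0.0382) and Ctsd (0.46, adjusted p = 0.0374). Lgmn (-2.80, adjusted p = 4.94e-06), Ctsb (-1.11, adjusted p = 1.96e-08) and Ctss (-0.52, adjusted p = 0.00145) were lower. Without the 2 ribosome-rich libraries Ctsc (0.31, adjusted p = 0.523), Ctsd (0.50, adjusted p = 0.229) and Ctss (-0.31, adjusted p = 0.207) were not called. Ctsc (adjusted p = 0.0753) and Ctsd (adjusted p = 0.0625) were also lost under library totals, and each was lost in several of the fits that left out 1 library. In tumor there were again 3 each way, against 8.07% and 6.41% of all genes: Ctsw (1.86), Ctsd (0.72) and Ctsc (0.51) higher, and Lgmn (-3.26), Ctsz (-0.88) and Ctss (-0.39) lower, with library totals moving the share of all calls that were higher from 55.7% to 41.1%. Without the conventional CD4 tumor library of 3 months, replicate 3, Ctsc (0.45, adjusted p = 0.176), Ctsd (0.50, adjusted p = 0.0709) and Ctss (-0.37, adjusted p = 0.122) were not called. The change from spleen to tumor differed for 1 member, Ctsb, which rose more in CD8 T cells by 0.88 (SE 0.188, adjusted p = 0.00378), against 2.6% of all genes higher and 1.76% lower. There library totals moved the share higher from 59.7% to 46.8%.

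**Figure D4:**
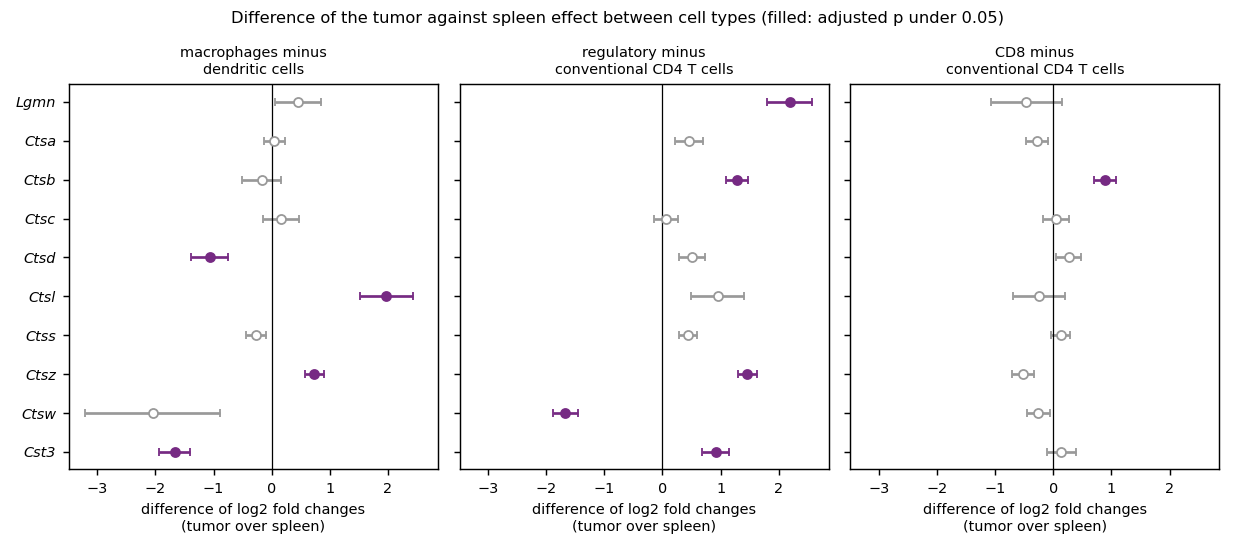
Difference of the tumor-over-spleen log2 fold changes between 2 cell types, with its standard error, for macrophages minus dendritic cells, regulatory minus conventional CD4 T cells and CD8 minus conventional CD4 T cells; filled points have an adjusted p under 0.05. Lgmn, Ctsb and Ctsz stand at 2.19, 1.29 and 1.46 in the middle panel, and Ctsl at 1.97 and Cst3 at -1.67 in the left panel.

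Mice of 12 months were compared with mice of 3 months in each cell type and tissue, and no member passed an adjusted p of 0.05 in the main edgeR fits. Some edgeR alternatives and fits without 1 library did call members in spleen, as given below. In spleen the share of all genes called was 0% in macrophages, 0.593% in dendritic cells, 0.0489% in regulatory T cells, 3.92% in conventional CD4 T cells and 1.02% in CD8 T cells. In tumor it was 0.0311% in conventional CD4 T cells (0.0155% higher and 0.0155% lower) and 0% in the other 4 types. The test of whether the age effect differed between the tissues called 0.668% of genes in conventional CD4 T cells, 0.143% in CD8 T cells and 0% in the others, and again 0 members. At an unadjusted p under 0.05 the number of members in spleen was 1 in macrophages, 4 in dendritic cells, 0 in regulatory T cells, 3 in conventional CD4 T cells and 2 in CD8 T cells (of 9 tested, without Lgmn). In tumor it was 1 in each of conventional CD4 and CD8 T cells and 0 in the others, and for the difference between tissues it was 2 in conventional CD4 T cells and 0 in the others. DESeq2 called 1 member in each of 3 spleen comparisons, named in the next paragraphs, and 0 in the other age comparisons.

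In spleen dendritic cells more members than in the other age comparisons had separate ranges, with 3 libraries a group and the 2 of uncertain age among them. Ctsc was at 432, 436 and 445 CPM at 12 months and at 262, 308 and 345 CPM at 3 months. The ages were separate, but the change missed the threshold (log2 0.54, SE 0.133, adjusted p = 0.0824), while DESeq2 gave an adjusted p of 0.0132. Ctsl was at 34.6, 46.3 and 95.7 CPM at 12 months and at 119, 164 and 230 CPM at 3 months, again without overlap (log2 -1.59, SE 0.409, adjusted p = 0.221). Ctsb was at 322, 336 and 381 CPM and at 392, 491 and 571 CPM (log2 -0.47, SE 0.145, adjusted p = 0.178). In all, 5 of the 10 members, these 3 with Lgmn and Ctsw, did not overlap between the ages, against 17% of all genes tested (0.593% called). Single libraries decided calls here: without the 3-month replicate 3 Ctsl was called (-1.89, adjusted p = 0.0196), and without replicate 4 of that group Ctsc (0.64, adjusted p = 0.0228) and Cst3 (-1.08, adjusted p = 0.000362) were. These are the 2 libraries of uncertain age; without both, 1 library of 3 months is left.

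In spleen conventional CD4 T cells Ctsb was at 198, 220, 256 and 266 CPM at 12 months and at 127, 136 and 147 CPM at 3 months. Every older library was above every younger one, and 14.6% of all genes had ranges that did not overlap (log2 0.60, SE 0.189, adjusted p = 0.0773; DESeq2 adjusted p = 0.0264). The 3-month libraries include the 2 rich in ribosomal transcripts, and without the third of that group, replicate 3, 4 members were called: Ctsb (0.60, adjusted p = 0.0138), Ctss (-0.66, adjusted p = 0.00233), Ctsw (-0.66, adjusted p = 0.00932) and Cst3 (-0.85, adjusted p = 0.00108). That fit keeps only the 2 ribosome-rich libraries at 3 months, and the share of all genes called in it is not given here. Leaving those 2 out instead, with 1 library of 3 months left, gave 0.61 for Ctsb, -0.06 for Ctss, -0.02 for Ctsw and 0.56 for Cst3 (log2). In spleen CD8 T cells Ctsw was at 553, 586, 598 and 618 CPM at 12 months and at 387, 392, 477 and 549 CPM at 3 months, which did not overlap either, against 4.89% of all genes (log2 0.39, SE 0.113, adjusted p = 0.129; DESeq2 adjusted p = 0.0484). Without the 3-month replicate 1 Ctsw (0.51, adjusted p = 0.0119) and Ctsd (0.51, adjusted p = 0.0201) were called. In spleen macrophages Ctss was at 2119, 2163, 2221 and 2661 CPM at 12 months and at 2699, 2778, 2882 and 3176 CPM at 3 months (log2 -0.28, adjusted p = 0.817). For legumain in tumor macrophages the mean was 3499 CPM in the older and 3544 CPM in the younger mice, a difference smaller than the spread.

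**Figure D5:**
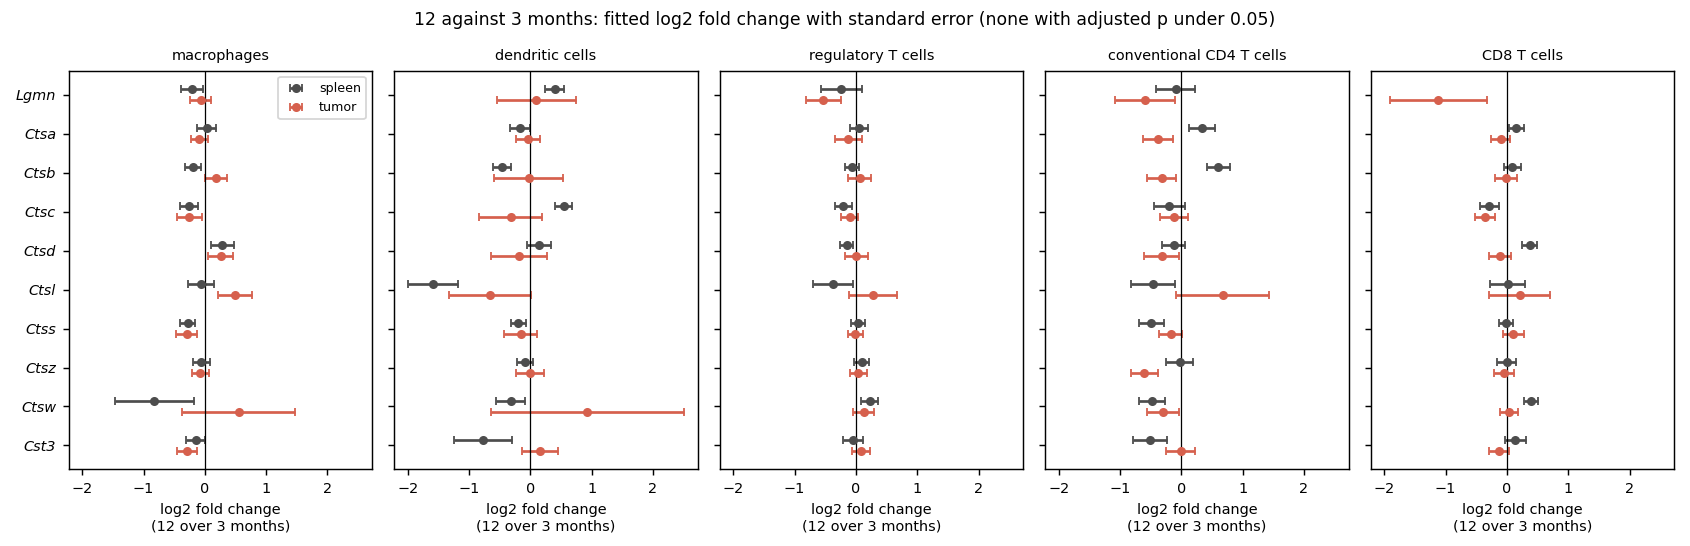
Fitted log2 fold change of 12 over 3 months with its standard error for the 10 genes in spleen and tumor of each cell type; Lgmn was not tested in spleen CD8 T cells. No value has an adjusted p under 0.05; Ctsl at -1.59 and Ctsc at 0.54 in spleen dendritic cells are among the values far from 0 relative to their errors.

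The rest of the lysosome was read from lists of genes by role, for tumor against spleen. Of 33 soluble hydrolases, which break down sugars and lipids, 23 rose and 0 fell in macrophages, 18 and 1 in dendritic cells, 14 and 3 in regulatory T cells, 4 and 1 in conventional CD4 T cells and 10 and 5 in CD8 T cells. List counts of the main fits in this and the next paragraphs stand against the share of all genes tested. That share was 23.9% higher and 27.8% lower in macrophages, 24.4% and 22.7% in dendritic cells and 25.9% and 27.6% in regulatory T cells. In conventional CD4 T cells it was 16% and 11.2%, and in CD8 T cells 22.5% and 19.6%. The median log2 fold change of the hydrolases was 0.65 in macrophages, against -0.06 over all genes tested, and 0.03 in CD8 T cells, against -0.01. Gm2a, which encodes a lipid-binding activator protein, went from 316 to 1142 CPM in regulatory T cells (log2 2.09, adjusted p = 6.89e-14). In macrophages Gm2a was at 1564 CPM in spleen and 1147 CPM in tumor (adjusted p = 0.0798). Under library totals the counts were 18 higher and 1 lower in macrophages, 13 and 6 in dendritic cells, 10 and 7 in regulatory T cells and 9 and 8 in CD8 T cells. Of all genes, 2136 were then higher and 4776 lower in macrophages (of 12876), and 2147 and 5149 in dendritic cells (of 13981). In regulatory T cells the numbers were 2455 and 5298 (of 13345). In conventional CD4 T cells they were 2198 and 1744 (of 14661), and in CD8 T cells 2556 and 3202 (of 13285). List counts from fits without some libraries have no such share beside them.

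Of the 17 subunits of the proton pump that acidifies the lysosome, 10 rose and 1 fell in macrophages, 15 and 0 in dendritic cells, 12 and 1 in regulatory T cells, 2 and 3 in conventional CD4 T cells and 8 and 0 in CD8 T cells, and under library totals 8 rose in either myeloid type. Atp6v1a rose by 0.96 in macrophages (adjusted p = 5.75e-07), 1.29 in dendritic cells (adjusted p = 1.28e-06) and 0.80 in regulatory T cells (adjusted p = 7.28e-06). Of the lysosomal membrane and lipid transport genes 13 of 21 rose and 2 fell in macrophages, 12 of 21 and 2 in dendritic cells and 17 of 20 and 0 in regulatory T cells (8, 9 and 10 higher under library totals). Lamp2 was among them in each, at 1.04, 2.11 and 2.08 (log2). Without the dendritic cell libraries rich in macrophage markers 15 hydrolases, 13 pump subunits and 12 membrane genes rose in dendritic cells.

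Sorting and regulation genes went in both directions. Grn, which encodes the lysosomal protein progranulin, rose in all 5 types, by 2.31 in macrophages, 1.69 in dendritic cells, 3.60 in regulatory T cells, 1.97 in conventional CD4 T cells and 2.02 in CD8 T cells (log2). M6pr, a mannose 6-phosphate receptor that carries cathepsins to the lysosome, rose by 2.20 in regulatory T cells (adjusted p = 1.4e-15) and 1.05 in macrophages (adjusted p = 7.42e-08). Tfeb, a regulator of lysosomal genes, fell by 1.71 in macrophages (adjusted p = 3.96e-08) and by 1.30 in dendritic cells (adjusted p = 2.69e-05), and Sort1, a sorting receptor, fell by 4.08 in macrophages and fell by 2.81 in dendritic cells. Of 16 such genes 9 rose and 2 fell in macrophages and 7 and 2 in dendritic cells (5 and 2, and 4 and 4, under library totals).

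Other inhibitors of cysteine proteases rose in the T cells. All 9 tested rose in regulatory T cells and all 9 in CD8 T cells, and 8 of 10 in conventional CD4 T cells, with the same counts under library totals. Ctla2a, which resembles the propeptide of a cathepsin and inhibits cathepsin L, went from 6.45 to 336 CPM in regulatory T cells (log2 5.92, adjusted p = 7.94e-09), from 28.5 to 584 CPM in conventional CD4 T cells (4.36, adjusted p = 1.84e-15) and from 155 to 561 CPM in CD8 T cells (2.09, adjusted p = 2.69e-12). In macrophages Ctla2a fell (-2.19, adjusted p = 2.04e-05), among 5 of 10 inhibitors that rose and 3 that fell, and 2 rose and 3 fell there without the 3 neutrophil-rich libraries. Stfa2l1, a stefin that belongs to neutrophils, fell by 4.85. Cstb, an intracellular cystatin, rose in macrophages (2.20, adjusted p = 6.42e-10) and dendritic cells (2.71, adjusted p = 2e-09).

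The partners of the members in the 2 immune roles named above were read too. Of 11 class II processing genes 8 rose and 3 fell in macrophages and 7 and 3 in dendritic cells, while 0 of 9 rose and 5 fell in CD8 T cells. The B cell markers fell in CD8 T cells too, from 59.5 to 125 CPM in spleen to between 9.42 and 34.7 CPM in tumor. Their part in that count was not tested. H2-DMb1, a chain of the peptide-loading catalyst, rose by 2.23 in macrophages (adjusted p = 3.67e-10) and by 1.92 in dendritic cells (adjusted p = 3.64e-09), and H2-Ob, a chain of its inhibitor that B cells also express, fell by 3.67 in macrophages (adjusted p = 1.18e-08), where B cell markers fell as well. Of the granule genes 9 of 10 rose and 1 fell in CD8 T cells, 7 of 10 rose in conventional CD4 T cells and 5 of 6 in regulatory T cells. The NK cell markers moved with these counts: in regulatory T cells they summed to 29.0 to 92.1 CPM in spleen and 263 to 692 CPM in tumor, with Klre1 at 0 in tumor, and their part in the counts was not tested. Gzmb, a granzyme that Ctsc can activate, went from 26.1 to 2379 CPM in CD8 T cells (log2 6.68, adjusted p = 5.73e-07) and from 51.4 to 7864 CPM in regulatory T cells (7.60, adjusted p = 1.54e-07). Of the other lysosomal proteases 6 of 13 rose and 2 fell in macrophages; Ctsh rose by 1.65 (adjusted p = 4.36e-10) and the aspartic protease Napsa fell by 1.73 (adjusted p = 3.59e-10).

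Across the 20 group means, the genes most like each member were found among 11861 genes by Pearson's r of log2(mean CPM + 1), a description in which the groups share cell types. For Lgmn they were Dnase2a, the lysosomal DNase (r = 0.96), P2rx4 (0.956) and Cmtm3 (0.953). For Ctsa the nearest was the serine carboxypeptidase Scpep1 (0.974), for Ctsb the late endosomal GTPase Rab7 (0.968), for Ctsz progranulin, Grn (0.962), and for Ctsl Mfsd12 (0.967). Ctsc was nearest to the macrophage gene Ms4a7 (0.98), Ctss to Rab3il1 (0.986), Cst3 to the lectin gene Clec10a (0.978) and Ctsw to Rnf138 (0.949) and Stat4 (0.948). Ctsd had the loosest likeness, to Oas3 (0.922). With TMM scaling 24 of the 30 nearest genes stayed among the first 3 of their member, but for Ctsb 0 of 3 did. Among the members themselves Lgmn was closest to Ctss (0.962) and Ctsz (0.942), had 0.319 with Ctsd and went against Ctsw (-0.908).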

How the data were processed

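The deposited table held whole-number read counts per gene for 74 libraries, raw counts that were not normalized by the authors; alignment with STAR 2.5.3, counting with featureCounts and the mm10 build are given per the submitters' processing notes, while for the annotation release, for strand and for how reads with several alignments were treated, the setting is not given in the sources used here. Library totals were 1652812 to 9115858 counts, and counting error limits the low values (3 counts for a library at 0).

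Tests used edgeR 4.0.16 (R 4.3.3, limma 3.58.1): TMM scaling, the filter of low counts by group, and the robust quasi-likelihood F test, with Benjamini-Hochberg adjustment over all genes tested and a threshold of 0.05. Each cell type was fitted with its 4 groups for tumor against spleen and for the age by tissue interaction, and ages were compared within a tissue. Pairs of cell types were fitted together. Fits with dendritic cells had sex as a covariate, since replicate 1 of each dendritic cell group is male. CPM are counts-per-million values relative to the library total; likeness used log2 of the mean CPM plus 1. The standard error is the log2 fold change divided by the square root of F. The share of all genes tested whose library ranges did not overlap was counted on the same CPM. Shares of all genes called refer to the main fits. They are not given for the alternatives, apart from the numbers of genes called for tumor against spleen under library totals. Only the macrophage fits of tumor against spleen and of age in spleen were tested on simulated data. The simulation set the same spread for every gene, and its outcome is not given here.

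Named were all 10 members, and from each list up to 4 genes past the threshold by smallest adjusted p with a group mean of at least 10 CPM plus the 2 most abundant genes, at most, among those not past it. The members and lists were chosen with earlier results of these data known. Alternatives were DESeq2's size factors, DESeq2 1.42.0's Wald test, no filter, the replicate number as a block, no sex covariate, other handling of the 2 libraries of conflicting age, leaving out the 2 tumor dendritic cell libraries rich in macrophage markers or the 2 spleen CD4 libraries rich in ribosomal transcripts (both known from earlier results of these data), and every single library omitted in turn (an arm may then hold 1 library, as for spleen dendritic cells of 3 months without those of conflicting age or spleen CD4 cells of 3 months without the ribosome-rich ones; its spread is taken to be that of the other groups); library totals and leaving out the 3 spleen macrophage libraries richest in neutrophil markers were added after seeing the data. Same-numbered samples deviated together (every r over 0.1) in tumor regulatory T cells compared by age alone, with r from 0.168 to 0.462 over 4 pairs; there the block changed no call of a member. Of 103 replicate pairs 0 held identical values. 1 gene that the naming rule selected is not reported here.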

Additional observations from a re-analysis of the deposited data

Results flagged for a closer look

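In 10 of 150 sets of 4 libraries 1 library lay far from the other 3 by Dixon's test, which chance gives in about 1 in 20 sets. In tumor dendritic cells of 3 months this was replicate 2, one of the 2 libraries rich in macrophage markers, for Lgmn (2126 CPM, the others 758.6 to 780.9), Ctsb (1842 CPM, the others 580.4 to 703.4) and Ctsl (689.1 CPM, the others 239.9 to 282.9). Lgmn was 25.58 CPM in regulatory T cells of spleen, 12 months, replicate 1, against 11.04 to 12.58. Ctsl was 21.23 CPM in conventional CD4 T cells of spleen, 12 months, replicate 1, against 13.24 to 14.03. Ctsz was 43.07 CPM in CD8 T cells of spleen, 12 months, replicate 4, against 58.07 to 60.24. Ctsw was 34.68 CPM in macrophages of spleen, 3 months, replicate 4, against 3.645 to 7.792, and 145.4 CPM in regulatory T cells of tumor, 12 months, replicate 3, against 94.16 to 102.4. Cst3 was 165.1 CPM in CD8 T cells of spleen, 12 months, replicate 1, against 114.5 to 119.4, and 144.2 CPM in those of tumor, 3 months, replicate 4, against 204.1 to 212.4.

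The tumor-against-spleen change differed between cell types in 10 tested values (log2, edgeR). For macrophages minus dendritic cells these were Ctsl at 1.974, Ctsz at 0.737, Ctsd at -1.069 and Cst3 at -1.672. For regulatory minus conventional CD4 T cells they were Lgmn at 2.188, Ctsz at 1.462, Ctsb at 1.286, Cst3 at 0.915 and Ctsw at -1.676, and for CD8 minus conventional CD4 T cells Ctsb at 0.884. Ctsl was also higher in every tumor library than in every spleen library in macrophages, and lower in every one in conventional CD4 T cells (-1.535) and CD8 T cells (-1.793). That difference between macrophages and T cells was not tested.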

How the results depend on the processing

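Of 90 results in which a member was called, 69 kept their call in every alternative run, and of 6703 values of members under an alternative 1 changed sign with a call: the macrophage minus dendritic cell difference of Ctsb went from -0.17 to 0.477 without the 2 tumor dendritic cell libraries rich in macrophage markers, where 7 members were called in place of 4. The number of members called by age in spleen dendritic cells, 0 in the main edgeR fit, was 2 with no filter, 1 with DESeq2 and 1 with the replicate block. Without the libraries of conflicting age Ctsl was at -2.21 (log2), where the 3-month arm holds 1 library that is assumed to vary like the others. In spleen conventional CD4 T cells the number called by age was 1 with DESeq2 and 1 with library totals. In spleen CD8 T cells it was 1 with DESeq2 and 2 with the replicate block. Between CD8 and conventional CD4 T cells 3 members were called in spleen without the ribosome-rich libraries, in place of 6, and the difference of effects had 2 with DESeq2, in place of 1. Leaving out 1 library gave 0 to 2 members by age in spleen dendritic cells, 3 to 8 for tumor against spleen in conventional CD4 T cells, 0 to 4 by age in spleen conventional CD4 T cells, 0 to 2 by age in spleen CD8 T cells and 3 to 6 between CD8 and conventional CD4 T cells in tumor. The share of all genes called is not set beside these counts, and the cause was not tested. Under the replicate block no other count of members moved by over 1.5 times; further single calls it added were Ctsw in dendritic cells, tumor against spleen (1.11, adjusted p = 0.000251), Ctsl between macrophages and dendritic cells in spleen (-0.89, adjusted p = 0.00924), Ctsa between regulatory and conventional CD4 T cells in tumor (0.38, adjusted p = 0.0255) and Ctsd in their difference of effects (0.57, adjusted p = 0.0392), and it lost Ctsc between macrophages and dendritic cells in spleen (0.43, adjusted p = 0.0931), in edgeR fits where the numbers were not shown to pair the samples. Depth limits Lgmn in CD8 T cells and Ctsw in macrophages, where a library at 0 allows up to 0.636 and 0.709 CPM.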
